A study of Mus musculus with 6 samples.

Results

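The major histone gene cluster of mouse chromosome 13 holds replication-dependent histone genes at both ends and a family of vomeronasal receptor genes between them. It was described here as the window chr13:21700001-23750000 (mm9), with every GATC fragment whose midpoint lay in it and with 1 Mb on either side as flanks. The window held 5513 of 6414976 GATC fragments, or 41 of 51168 bins of 50 kb, and the flanks held 2554 and 2381 fragments. In all 3 maps the middle of the cluster, the interior, was a single block of high lamina contact apart from its last bin. Most of both ends lay well below the genome's typical level.

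Histone genes of this kind encode the core and linker histones and are transcribed mainly in S phase, at a nuclear body that gathers their promoters and the machinery that cuts their unpolyadenylated mRNAs. Vomeronasal type 1 receptors (Vmn1r) are G protein-coupled receptors for pheromones, and their genes are used by sensory neurons of the vomeronasal organ, not by fibroblasts. Lamina-associated domains (LADs) are long stretches of chromatin at the nuclear periphery, and they are known to be poor in active genes.

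The maps come from C57BL/6 mouse embryonic fibroblasts, which are cultured connective tissue cells, labelled wild type. All cells received lentiviral shRNA and puromycin before the lentivirus for DamID, in which a bacterial adenine methyltransferase (Dam) fused to a lamin methylates GATC sites near the lamina and Dam alone gives the background. The LmnA RNAi map and the LmnC RNAi map (shRNA against lamin A or lamin C) each used Dam-LmnB1. The map after LmnB1 RNAi (shRNA against lamin B1) used Dam-LmnA. Each map is 1 fusion library over 1 Dam-only library. The LmnB1 RNAi map therefore differs from the others in target and in fusion together, and these cannot be told apart. The LmnB1 target is given by the description labels only, as the labels' treatment text lists shRNA for the other two targets. Residual lamin was not measured in these files, and no map of shRNA-free cells was used here. With 1 map per knockdown there is no test, and no p-value is given. Each mean is weighted by fragment length, and its standard error (SE) is over fragments, which share their libraries. It covers the spread along the chromosome and not the spread between cultures.

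The genes are known here by their order in the RefSeq table of GRCm38.p6, a later build than that of the maps. From H2bc13 to H1f1 the table lists 245 genes, of which 54 are histone genes, 79 are Vmn1r genes and 77 are tRNA genes. The Vmn1r genes form 1 run, with 36 protein-coding genes and 43 pseudogenes, and no tRNA gene lies among them. Before that run stand 24 histone genes and 32 tRNA genes. This set holds 8 H2b, 8 H2a (1 of them a pseudogene), 5 H4, 2 H3 and 1 H1 gene. After the run comes a stretch with no histone gene but with 45 tRNA genes and 4 protein-coding genes, Zfp322a (a zinc finger protein), Abt1 (an activator of basal transcription), Btn1a1 and Btn2a2 (butyrophilins). The remaining 30 histone genes follow it. They comprise 7 H3, 6 H4, 6 H2b, 6 H2a (1 a pseudogene) and 5 H1 genes, with Hfe, a regulator of iron uptake, among them. Olfactory receptor genes precede H2bc13, and Trim38 and phosphate transporter genes of the Slc17a family follow H1f1.

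The promoters of both families are shown because GATC is the only sequence DamID reads, and because the gene families differ in how often their promoters hold it. RefSeq promoter sequences (250 bases before to 50 after the gene's start, GRCm38.p6, in each gene's own direction) were given for 49 of the 54 histone and 33 of the 79 Vmn1r genes. The first and the last gene of each family in the order are printed, with 3 motifs in capitals. GATC is the Dam site. The letters CCAAT are those of a box bound by the factor NF-Y, and TATAAA are those of a TATA box. Each was searched on both strands, so ATTGG stands for the NF-Y box read on the opposite one, and no motif overlaps another.
H2bc13, minus strand: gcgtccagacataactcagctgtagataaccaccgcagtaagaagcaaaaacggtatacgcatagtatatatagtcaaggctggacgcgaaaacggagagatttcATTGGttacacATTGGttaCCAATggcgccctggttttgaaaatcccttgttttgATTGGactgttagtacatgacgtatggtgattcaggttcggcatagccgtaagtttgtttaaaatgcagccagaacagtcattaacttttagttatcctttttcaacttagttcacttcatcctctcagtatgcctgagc
H1f1, plus strand: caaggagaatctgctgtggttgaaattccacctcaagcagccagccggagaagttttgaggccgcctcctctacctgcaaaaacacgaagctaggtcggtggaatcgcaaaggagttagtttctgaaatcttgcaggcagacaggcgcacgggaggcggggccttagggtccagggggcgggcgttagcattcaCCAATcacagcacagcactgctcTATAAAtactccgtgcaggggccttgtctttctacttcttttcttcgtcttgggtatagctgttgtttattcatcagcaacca
Vmn1r188, plus strand: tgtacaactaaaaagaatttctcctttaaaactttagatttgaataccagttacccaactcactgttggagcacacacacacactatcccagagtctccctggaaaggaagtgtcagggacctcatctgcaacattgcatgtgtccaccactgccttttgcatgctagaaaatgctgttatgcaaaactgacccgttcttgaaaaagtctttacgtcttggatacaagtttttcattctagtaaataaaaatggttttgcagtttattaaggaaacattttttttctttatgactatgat
Vmn1r223, plus strand: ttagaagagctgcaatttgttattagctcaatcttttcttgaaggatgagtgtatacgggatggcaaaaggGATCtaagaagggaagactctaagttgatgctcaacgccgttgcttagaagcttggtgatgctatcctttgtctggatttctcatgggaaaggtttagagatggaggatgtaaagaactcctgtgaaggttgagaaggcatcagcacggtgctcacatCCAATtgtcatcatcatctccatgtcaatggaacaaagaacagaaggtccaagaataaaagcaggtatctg
H2bc13 holds 4 CCAAT boxes within its 300 bases and no GATC. Across each family, GATC was present in 24 of 33 Vmn1r promoters (72.7%) and in 15 of 49 histone promoters (30.6%), against 48.0% of all 27025 promoters of the table. CCAAT was present in 36.4% of Vmn1r and 83.7% of histone promoters, against 37.9% of all, and TATAAA in 27.3% and 59.2%, against 14.2% of all. The median GC content was 36.3% in Vmn1r promoters and 45.3% in histone promoters, both below the 52.7% of all promoters. The median number of CpG was 1 in the Vmn1r and 11 in the histone promoters, against 7 in all. These windows are short, and a match is not a bound site.

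Promoters also allowed a check of the builds, here those of any gene over the window and its flanks by position number. They hold 93 GATC sites, and 1 of the 93 coincided with a fragment border in the mm9 files at the same position number. At a single shift of 91869 bp all 93 did, and the next best shift matched 5. Position numbers in the mm9 files were therefore higher by that shift at all 93 sites. The window was used as given and may be displaced toward lower coordinates relative to the genes. No gene was assigned to a bin. For the difference between interior and ends, the LAD shares and the counts of bins, values of a window moved by 100 kb toward higher coordinates are given too, as an alternative chosen after seeing the data.

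The signal of a fragment is the deposited log2 ratio of fusion reads over Dam-only reads plus a constant of its map, so higher values stand for more reads from the lamin fusion relative to Dam alone. Equal reads fall at -0.34, 0.21 and -0.15 in the LmnA, LmnC and LmnB1 RNAi maps, and 0 is only the zero of the deposited scale. The interior was set as bins 10 to 34 (chr13:22150001-23400000), the first end as bins 1 to 9 (chr13:21700001-22150000) and the last end as bins 35 to 41 (chr13:23400001-23750000). These bounds were placed with the profile known, so a contrast between interior and ends, or between interior and genome, is partly built into them. The interior averaged 3.02 ± 0.10 in the LmnA RNAi map (SE over 3534 fragments), 2.20 ± 0.09 in the LmnC RNAi map and 1.98 ± 0.09 in the LmnB1 RNAi map. Over both ends the means were -1.89 ± 0.14, -2.74 ± 0.13 and -1.83 ± 0.12 in the LmnA, LmnC and LmnB1 RNAi maps (SE over 1979 fragments). The interior minus ends difference on the log2 scale was 4.91 ± 0.17 in the LmnA RNAi map, 4.94 ± 0.16 in the LmnC RNAi map and 3.81 ± 0.15 in the LmnB1 RNAi map. In the moved window it was 5.17, 5.20 and 4.0, in that order.

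A fragment with 0 reads in 1 of its libraries gets an extreme ratio, of size above 12, because the deposited values rest on adding a very small number before the log. Without those fragments the interior averaged 1.31, 1.12 and 0.81 and the ends -1.39, -1.55 and -1.19 in the LmnA, LmnC and LmnB1 RNAi maps. The difference was then 2.71 ± 0.08, 2.67 ± 0.07 and 2.00 ± 0.07. The direction was the same in every map and the size was smaller, so the values over all fragments are no measure of a fold.

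The reads behind these extreme fragments show the same split. In the interior 911 fragments had reads in the fusion library alone and 130 in the Dam-only library alone after LmnA RNAi, so 87.5% were fusion-only (95% Wilson interval 85.4 to 89.4%). In the ends 196 were fusion-only and 326 Dam-only, or 37.5% (33.5 to 41.8%). The fusion-only share was 79.3% (76.6 to 81.8%) in the interior and 25.7% (22.2 to 29.4%) in the ends after LmnC RNAi. It was 80.3% (77.6 to 82.8%) in the interior and 28.4% (24.7 to 32.5%) in the ends after LmnB1 RNAi. The genome's shares were 67.2%, 52.0% and 58.2%. Among fragments read in both libraries, 90.8%, 83.6% and 84.4% lay above the map's constant (equal reads) in the interior, and 29.4%, 19.7% and 25.3% in the ends. Over the genome these shares were 63.6%, 45.9% and 55.7%. The intervals cover counting error only, and they treat neighbouring fragments of the same libraries as independent. They do not cover the spread between cultures or the choice of bounds on this signal. The reads also carry no molecular identifiers. These shares come from the same reads as the ratios and are not a separate measurement.

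In reads, the single-library fragments of the interior held 3258 fusion and 263 Dam-only reads in the LmnA RNAi map, 2001 and 283 in the LmnC RNAi map, and 1736 and 303 in the LmnB1 RNAi map. Those of the ends held 461 fusion and 2232 Dam-only reads in the LmnA RNAi map, 306 and 4482 in the LmnC RNAi map, and 304 and 2464 in the LmnB1 RNAi map. Dam-only reads outnumbered fusion reads among these fragments in the ends, and fusion reads outnumbered Dam-only reads in the interior. Over the genome such fragments held 3031313 fusion and 1442271 Dam-only reads in the LmnA RNAi map. The numbers were 1914486 and 2759812 in the LmnC RNAi map, and 2035121 and 1861546 in the LmnB1 RNAi map. As the deposit holds ratios, the total depth of a library is unknown. The interior was slightly richer in GATC fragments, with 2.85 per kb, against 2.50 per kb in the ends and 2.53 per kb in the genome. Fragments at the map's constant made up 27.7%, 28.4% and 31.8% of the interior and 26.1%, 22.3% and 24.5% of the ends.

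**Figure D1:**
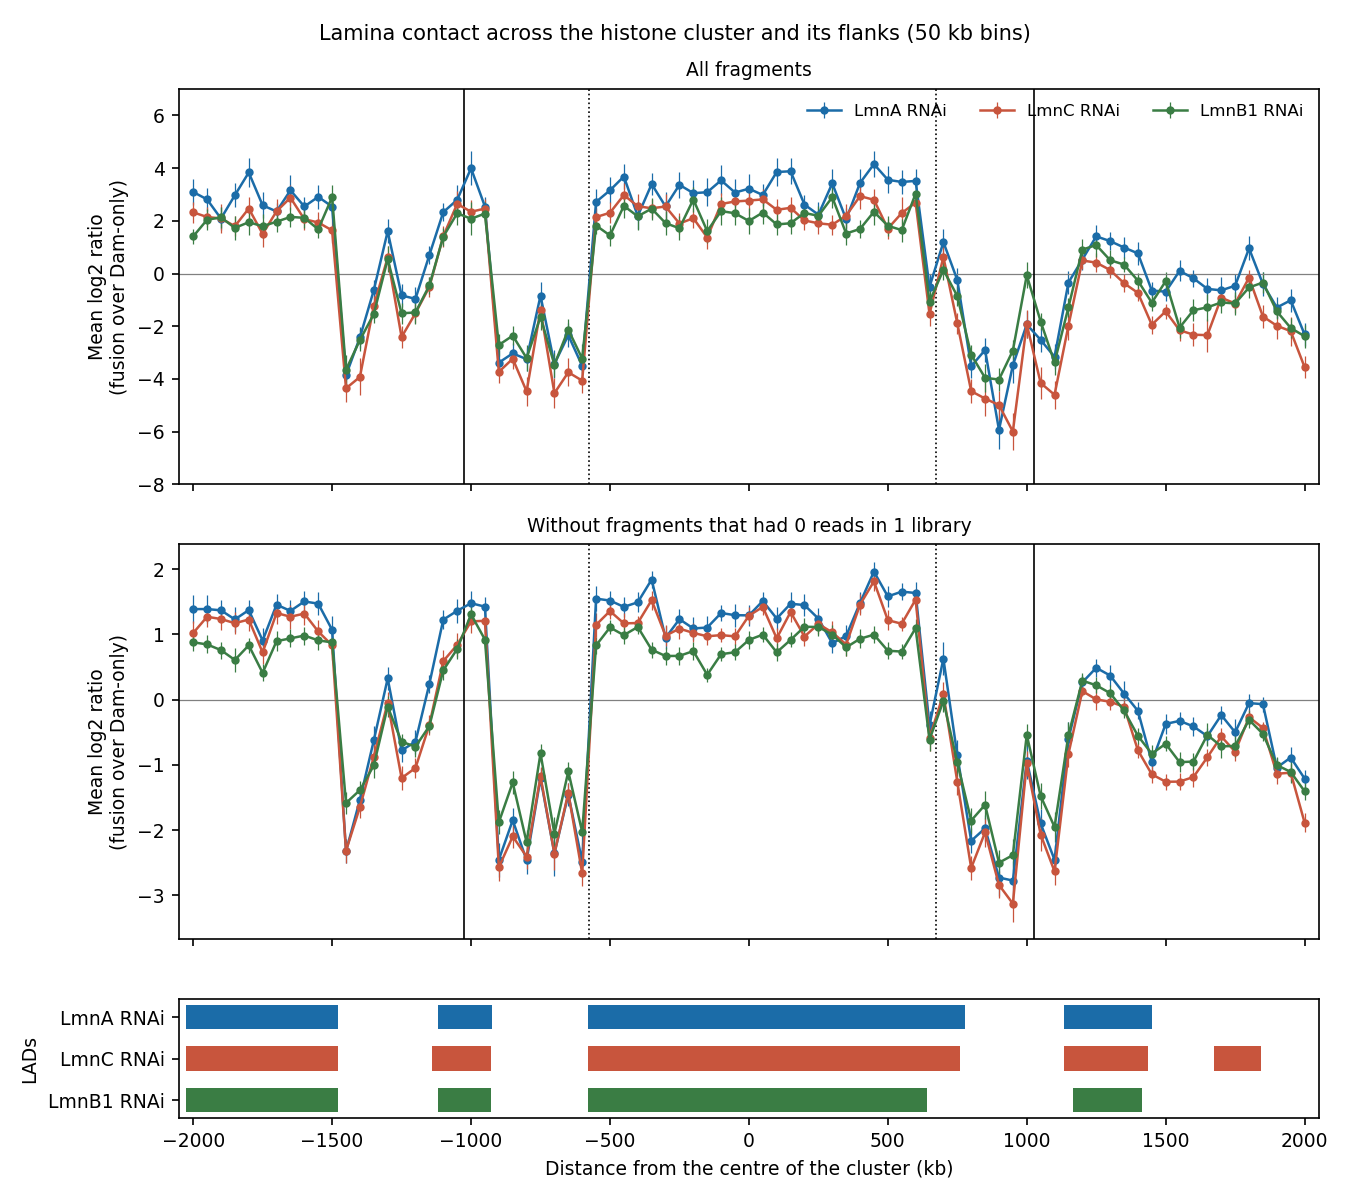
Mean log2 ratio of fusion over Dam-only reads in bins of 50 kb (points, with the SE over fragments as bars) against distance from the centre of the cluster in kb, for all fragments (top) and with the 0-read fragments left out (middle), with the deposited LADs of each map as bars (bottom). Solid lines bound the cluster and dotted lines its interior, where every bin but the last stays above 0. With all fragments, the bins just before its start lie below -2. At its end the signal falls in the last bin of the interior, rises in the bin after it and then falls again.

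Bin by bin, the interior was a plateau. Its bins lay above 0 in 24 of 25 cases in every map, where 66.0% of all bins of the genome were above 0 in the LmnA RNAi map, 51.9% in the LmnC RNAi map and 58.1% in the LmnB1 RNAi map. The bounds were chosen on this signal, and nothing is read from that contrast. In the first end 2 of 9 bins and in the last end 1 of 7 bins were above 0 in each map. The median bin of the interior stood at 3.22 after LmnA RNAi, the 92.3rd percentile of the genome's bins by the median of the bins' percentiles. In the LmnC RNAi map it stood at 2.42 (90.3) and in the LmnB1 RNAi map at 1.99 (76.5). The median bin of the ends stood at -2.97 (6.67), -3.74 (8.77) and -2.53 (10.3). The highest bin of the interior by the mean of the 3 maps was chr13:23150001-23200000, with 4.15 ± 0.49, 2.80 ± 0.42 and 2.34 ± 0.50 after LmnA, LmnC and LmnB1 RNAi. After LmnA RNAi that bin lies at percentile 99.5 of the genome's bins.

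The lowest bin of the interior was its last, chr13:23350001-23400000, with -0.51 ± 0.50, -1.54 ± 0.44 and -1.07 ± 0.46. It was the only interior bin under 0 in any of the 3 maps. The other 24 bins ran from 2.06 to 4.15 in the LmnA RNAi map, from 1.36 to 2.98 in the LmnC RNAi map and from 1.44 to 3.03 in the LmnB1 RNAi map. With an SE of about 0.5 per bin, most neighbours on this plateau do not differ beyond their error.

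**Figure D2:**
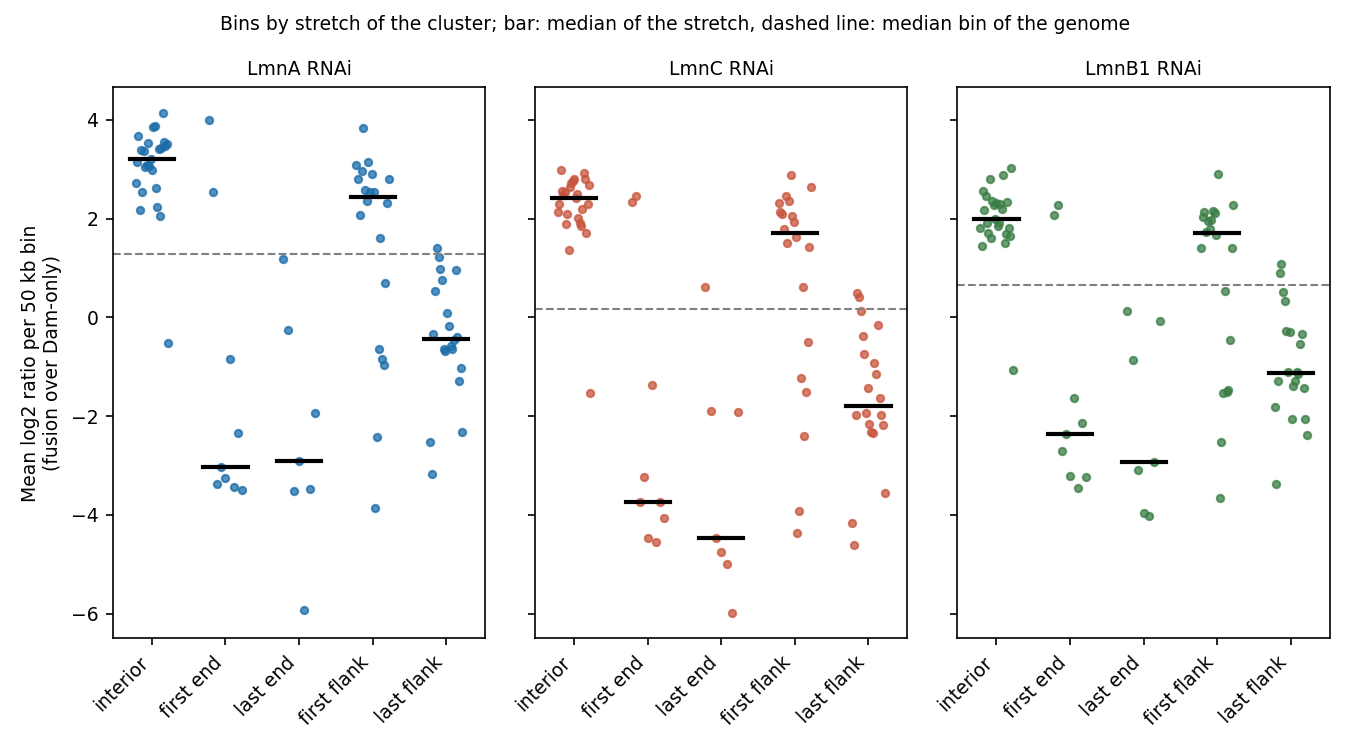
Mean log2 ratio of each 50 kb bin (points) in the interior (25 bins), the first end (9), the last end (7) and the flanks (20 each), with the median of each stretch (bar) and the median bin of the genome (dashed line), 1 panel per map. The interior lies above the dashed line in each map except for 1 bin, and most bins of both ends lie below -2.

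The first end was not uniform. Its first 2 bins, chr13:21700001-21800000, were high: chr13:21700001-21750000 had 3.99, 2.34 and 2.08 and chr13:21750001-21800000 had 2.54, 2.46 and 2.27 after LmnA, LmnC and LmnB1 RNAi. They lay in a short LAD, chr13:21605744-21798980 in the LmnA RNAi map, that began in the flank. Given the shift between builds, these bins may lie before the first histone gene, which was not determined. The 7 bins after it were low, with the lowest at chr13:22000001-22050000 (-3.43 ± 0.55, -4.54 ± 0.56 and -3.46 ± 0.46). A less low bin stood among them at chr13:21950001-22000000, with -0.84 ± 0.51, -1.37 ± 0.39 and -1.64 ± 0.51.

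The last end held the lowest values of the cluster. Its lowest bin by the mean of the 3 maps was chr13:23600001-23650000, with -5.93 ± 0.74, -4.99 ± 0.55 and -4.02 ± 0.45 in the LmnA, LmnC and LmnB1 RNAi maps. Over all fragments the percentiles of that bin among all bins were 0.00977, 1.40 and 0.948, so few bins of the genome were lower by that measure. The next bin, chr13:23650001-23700000, had -3.48 ± 0.68, -6.00 ± 0.69 and -2.93 ± 0.41. Without the 0-read fragments chr13:23600001-23650000 was at -2.72, -2.84 and -2.50, and chr13:23650001-23700000 at -2.77, -3.13 and -2.38. The latter was then the lower of the pair in the LmnA and LmnC RNAi maps, and percentiles without these fragments were not determined. The highest bin of the last end was its first, chr13:23400001-23450000, with 1.19 ± 0.51, 0.63 ± 0.39 and 0.14 ± 0.38. Without the 0-read fragments that bin was at 0.63, 0.09 and -0.02.

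The deposited LAD lists gave the same outline, being calls on the same signal. By fragment length, 100% of the interior lay in LADs after LmnA RNAi and LmnC RNAi and 97.3% after LmnB1 RNAi. In the ends the share was 25.8%, 23.3% and 12.5%, and over the genome 67.9%, 58.9% and 59.8%. The share of the ends depended on their bounds and on the shortest LAD used. It was 13.5%, 12.9% and 13.1% in the moved window, where the interior had 100%, 98.9% and 89.3%. With the interior narrower by 2 bins on each side it was 40.6%, 38.6% and 26.6%, and with LADs of at least 300 kb 13.4%, 11.2% and 0.603%. A single LAD covered the interior, or 97.3% of it in the LmnB1 RNAi map. This LAD lay at chr13:22144874-23502638 (1358 kb) in the LmnA RNAi map, chr13:22145989-23485558 (1340 kb) in the LmnC RNAi map and chr13:22145052-23366068 (1221 kb) in the LmnB1 RNAi map. It was longer than 79.0%, 82.5% and 79.8% of the LADs of its map. On either side stood a LAD-free gap. By the LmnA RNAi map these were chr13:21798981-22144873 (346 kb) and chr13:23502639-23858164 (356 kb), against a median gap of 205 kb.

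Over these bounds of the LmnA RNAi map, the gap before the interior averaged -2.90 ± 0.18, -3.67 ± 0.18 and -2.74 ± 0.17 in the LmnA, LmnC and LmnB1 RNAi maps. The gap after it, over the same map's bounds, averaged -3.44 ± 0.21, -4.54 ± 0.23 and -2.78 ± 0.17. By the LmnB1 RNAi map's own list the second gap was longer, chr13:23366069-23893182 (527 kb), with a mean of -2.15 ± 0.13 in that map. This second gap runs past the end of the window into the last flank, where chr13:23750001-23800000 (-2.52, -4.15 and -1.82) and chr13:23800001-23850000 (-3.16, -4.60 and -3.38) were still low.

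The start of the interior LAD was placed almost identically by the 3 maps, at 22144874, 22145989 and 22145052 in the LmnA, LmnC and LmnB1 RNAi maps, a spread of 1.11 kb. Counted from the LmnA RNAi list, the median spread of the genome's 3536 borders was 84.0 kb, and 3.34% of borders were within 2 kb. The other border that faces the same gap, the end of the short LAD at 21798980, 21797501 and 21795795, had a spread of 3.19 kb. Within 50 kb of the interior LAD's start, the signal inside minus outside was 7.12 ± 0.63, 6.69 ± 0.60 and 5.49 ± 0.62. Across the end of the short LAD it was 5.97 ± 0.58, 6.29 ± 0.56 and 5.02 ± 0.60.

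The end of the interior LAD was placed differently. It lay at 23502638 in the LmnA RNAi map, at 23485558 in the LmnC RNAi map and at 23366068 in the LmnB1 RNAi map, a spread of 137 kb, and 56.8% of the genome's borders had a smaller one. A stretch of 119 kb (chr13:23366069-23485558, 297 fragments) was thus in a LAD of the LmnA and LmnC RNAi maps but not of the LmnB1 RNAi map. Its signal was 0.27 ± 0.32, -0.64 ± 0.27 and -0.57 ± 0.27 in the LmnA, LmnC and LmnB1 RNAi maps. The deposited values of the LmnC and LmnB1 RNAi maps were thus close there, while their calls differed. Over the genome, LmnC minus LmnB1 RNAi was -0.54, so close values do not stand for equal contact. Whether the signal differs beyond that offset was not tested. Without the 0-read fragments the signal of the stretch was -0.10 ± 0.16, -0.55 ± 0.13 and -0.46 ± 0.12. The shared core before it (chr13:22145989-23366068) averaged 3.14 ± 0.10, 2.33 ± 0.09 and 2.09 ± 0.09.

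At the LmnA RNAi map's end of the interior LAD the step from inside to outside was 3.44 ± 0.63, 2.64 ± 0.62 and 2.28 ± 0.56. All 3 were measured at that map's position, and the LmnC and LmnB1 RNAi maps place the end elsewhere. The inside values there were -0.23 ± 0.45, -2.06 ± 0.39 and -1.03 ± 0.40, already below 0. The intermediate stretch lies on the side of the window that, in the order of genes, follows the receptors, where tRNA genes and Zfp322a, Abt1, Btn1a1 and Btn2a2 come before the second set of histone genes. Which of these genes lie within it was not determined. Past the second gap, the next LAD began at 23858165, 23860121 and 23893183 (a spread of 35.0 kb), and it was weak, with 0.92 ± 0.15, -0.06 ± 0.14 and 0.64 ± 0.17 over its own bounds in each map.

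**Figure D3:**
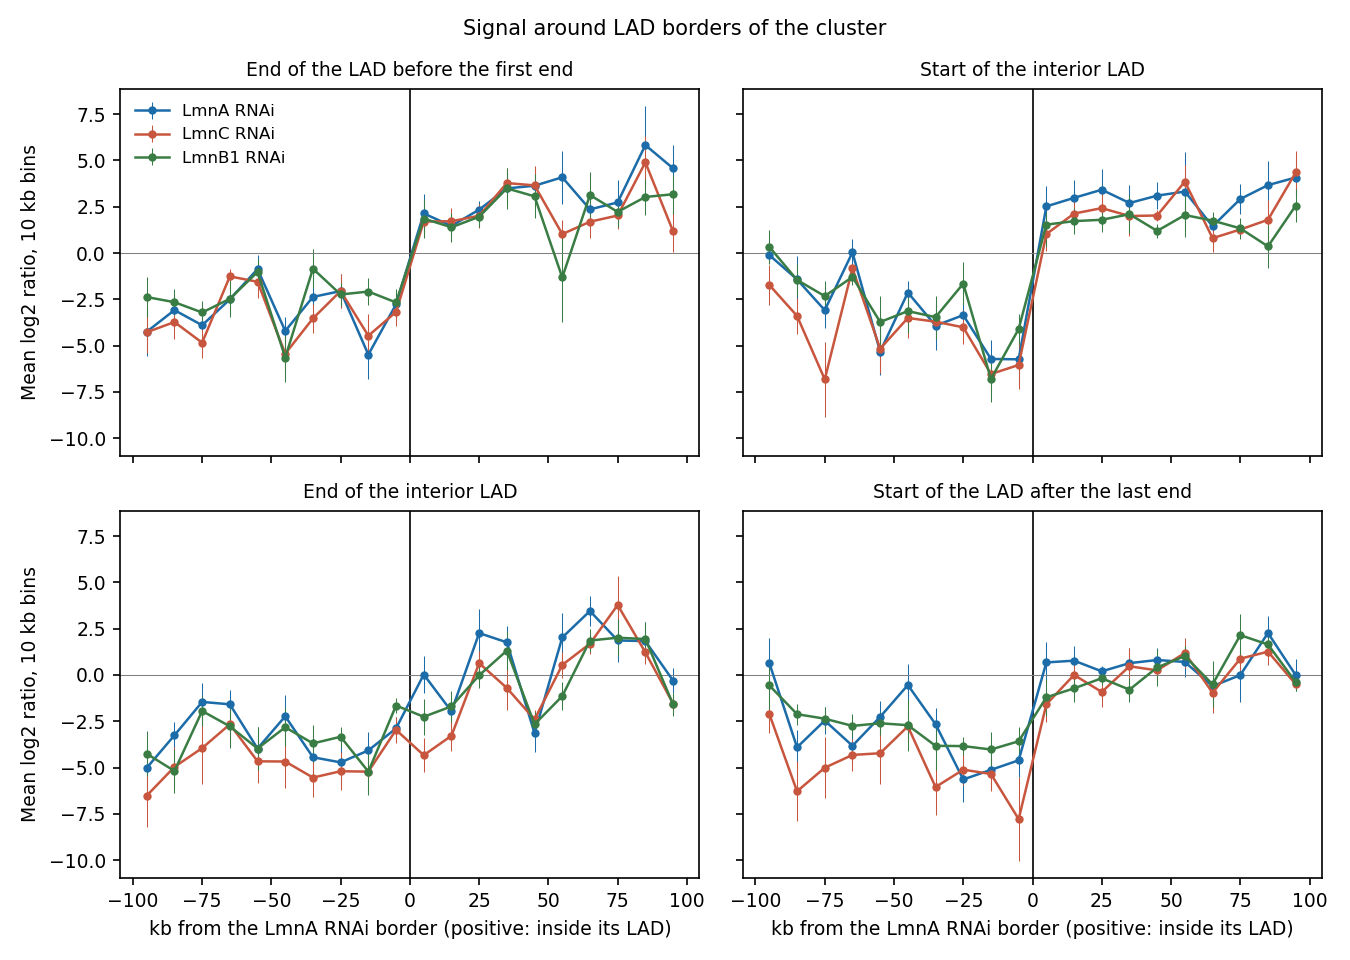
Mean log2 ratio in 10 kb bins (points, SE over fragments as bars) within 100 kb of 4 LAD borders of the LmnA RNAi map, with positive distances inside its LAD. At the end of the short LAD and at the start of the interior LAD the 3 maps cross 0 at the border itself, while at the end of the interior LAD values inside it alternate around 0.

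Over its whole length the cluster's mean lay above the genome's in each map, with interior and ends on opposite sides of the genome's mean. The median percentile of the cluster's bins was 78.9, 81.2 and 69.3 in the LmnA, LmnC and LmnB1 RNAi maps. Its LAD share was 71.0%, 70.1% and 64.2%, against 67.9%, 58.9% and 59.8% over the genome. The cluster averaged 1.11 ± 0.09, 0.27 ± 0.08 and 0.50 ± 0.08, against 0.72, -0.28 and 0.26 over the genome and 0.67, -0.45 and 0.11 over chromosome 13. Its mean was above that of both flanks by 0.57 ± 0.11, 0.74 ± 0.11 and 0.60 ± 0.10. The flanks were unlike each other. The first flank averaged 1.48, 0.70 and 0.75, and the last flank -0.41, -1.62 and -0.95. The first flank's highest and lowest bins were chr13:20900001-20950000 (a mean over the 3 maps of 2.75) and chr13:21250001-21300000 (-3.96). Those of the last flank were chr13:23950001-24000000 (0.97) and chr13:23800001-23850000 (-3.71). The LmnC RNAi map alone listed a LAD at chr13:24397893-24566550 in the last flank, where its signal was -0.71 ± 0.18, against -0.09 ± 0.25 in the LmnA RNAi map and -0.76 ± 0.22 in the LmnB1 RNAi map.

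LmnA RNAi minus LmnC RNAi is the comparison of knockdowns made with the same fusion. The LmnA RNAi map was higher by more than 0.5 in 29 of the 41 cluster bins, where 72.2% of all bins were, and lower by more than 0.5 in 1, where 2.81% of all bins were. The count of higher bins is near the background. The difference was 0.82 ± 0.13 in the interior, 0.79 ± 0.24 in the first end and 0.93 ± 0.30 in the last end, against 1.00 over the genome. With the median bin of each map set to 0 (1.29, 0.18 and 0.65 in the LmnA, LmnC and LmnB1 RNAi maps), 6 bins were higher (background 21.4%) and 18 lower (33.2%). Centring subtracts 1 value per map and moves every bin's difference by the same amount. In every pair the centred counts are therefore counts of the deposited differences at shifted cut-offs, and not a separate measurement. In the moved window, uncentred, 30 bins were higher and 1 lower. Without the 0-read fragments 1 bin was higher (23.9%) and 0 were lower (0.334%), and the interior differed by 0.19 ± 0.05, against 0.28 over the genome.

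The 3 largest positive differences of this pair lay in the last end and the interior. The bin chr13:23650001-23700000 had -3.48 in the LmnA RNAi map and -6.00 in the LmnC RNAi map, a difference of 2.51 ± 0.97 that came to 0.35 without the 0-read fragments. The bin beside it, chr13:23600001-23650000, had the largest negative difference, -0.94 ± 0.92, which came to 0.11. Next came chr13:23200001-23250000 in the interior (1.85 ± 0.63) and chr13:23550001-23600000 in the last end (1.84 ± 0.80) as the other higher bins. In the opposite direction chr13:22300001-22350000 (-0.37 ± 0.67) and chr13:23050001-23100000 (-0.14 ± 0.63) were within their error.

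Against the LmnB1 RNAi map, target and fusion differ together, and both pairs below share that map. At the same threshold of 0.5 the LmnA RNAi map was higher in 25 of the 41 bins (48.7% of all bins) and lower in 5 (12.5%). Of the 25 higher bins 20 lay in the interior, and the 5 lower bins were 2 of the first end and 3 of the last end. The difference was 1.04 ± 0.13 in the interior, 0.13 ± 0.24 in the first end and -0.30 ± 0.28 in the last end, against 0.46 over the genome. Without the 0-read fragments it was 0.50 ± 0.04, -0.27 ± 0.13 and -0.11 ± 0.14, against 0.16, with 16 bins higher (19.0%) and 2 lower (4.02%). Centred, 12 bins were higher (20.4%) and 12 lower (34.2%), and in the moved window, uncentred, 24 were higher and 6 lower.

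The LmnC RNAi map was higher than the LmnB1 RNAi map in 8 of 41 bins (8.83% of all bins) and lower in 14 (50.5%). All 8 higher bins lay in the interior, while the lower bins were 2 in the interior, 6 of 9 in the first end and 6 of 7 in the last end. The difference was 0.22 ± 0.12 in the interior, -0.66 ± 0.24 in the first end and -1.23 ± 0.27 in the last end, against -0.54 over the genome. Without the 0-read fragments it was 0.31 ± 0.04, -0.34 ± 0.12 and -0.38 ± 0.13, against -0.12, with 4 bins higher (1.82%) and 5 lower (13.1%). Centred, 20 bins were higher (24.2%) and 9 lower (27.9%), and in the moved window, uncentred, 8 were higher and 16 lower. In both pairs the contrast between interior and ends was thus wider in the map made with Dam-LmnB1 than in the LmnB1 RNAi map made with Dam-LmnA. The LmnB1 RNAi map also varied less over the whole genome. The standard deviation of all its bins was 1.97, against 2.14 in the LmnA RNAi map and 2.31 in the LmnC RNAi map. Whether the contrast of this cluster goes beyond that difference in scale was not tested.

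A stricter threshold and larger bins were read the same way. At a difference of 1, LmnA minus LmnC RNAi had 16 of 41 bins higher (47.4% of all bins) and 0 lower (0.590%). LmnA minus LmnB1 RNAi had 15 higher (25.7%) and 2 lower (4.21%), and LmnC minus LmnB1 RNAi had 1 higher (2.08%) and 9 lower (27.0%). In bins of 100 kb and at 0.5, LmnA minus LmnC RNAi had 16 of 20 higher (76.2%) and 0 lower (0.813%). LmnA minus LmnB1 RNAi had 12 higher (48.8%) and 2 lower (8.47%), and LmnC minus LmnB1 RNAi had 4 higher (4.74%) and 4 lower (51.3%). The counts of LmnA minus LmnC RNAi again lay near or below the background.

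Of the bins furthest apart in these pairs, the higher ones lay in the interior except 1, and the lower ones in the ends. For LmnA minus LmnB1 RNAi the highest were chr13:22800001-22850000 (1.99 ± 0.66) and chr13:22850001-22900000 (1.97 ± 0.65) in the interior and chr13:21700001-21750000 (1.91 ± 0.89) in the first end. The lowest were chr13:23600001-23650000 (-1.91 ± 0.86) and chr13:23700001-23750000 (-1.87 ± 0.71) in the last end and chr13:21850001-21900000 (-0.67 ± 0.54) in the first end. For LmnC minus LmnB1 RNAi the highest were chr13:23100001-23150000 (1.24 ± 0.59), chr13:22200001-22250000 (0.86 ± 0.56) and chr13:22700001-22750000 (0.77 ± 0.75), all in the interior. The lowest was chr13:23650001-23700000 (-3.07 ± 0.81, or -0.74 without the 0-read fragments), and after it came chr13:23700001-23750000 (-1.86 ± 0.73) in the last end and chr13:22050001-22100000 (-1.62 ± 0.67) in the first end.

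**Figure D4:**
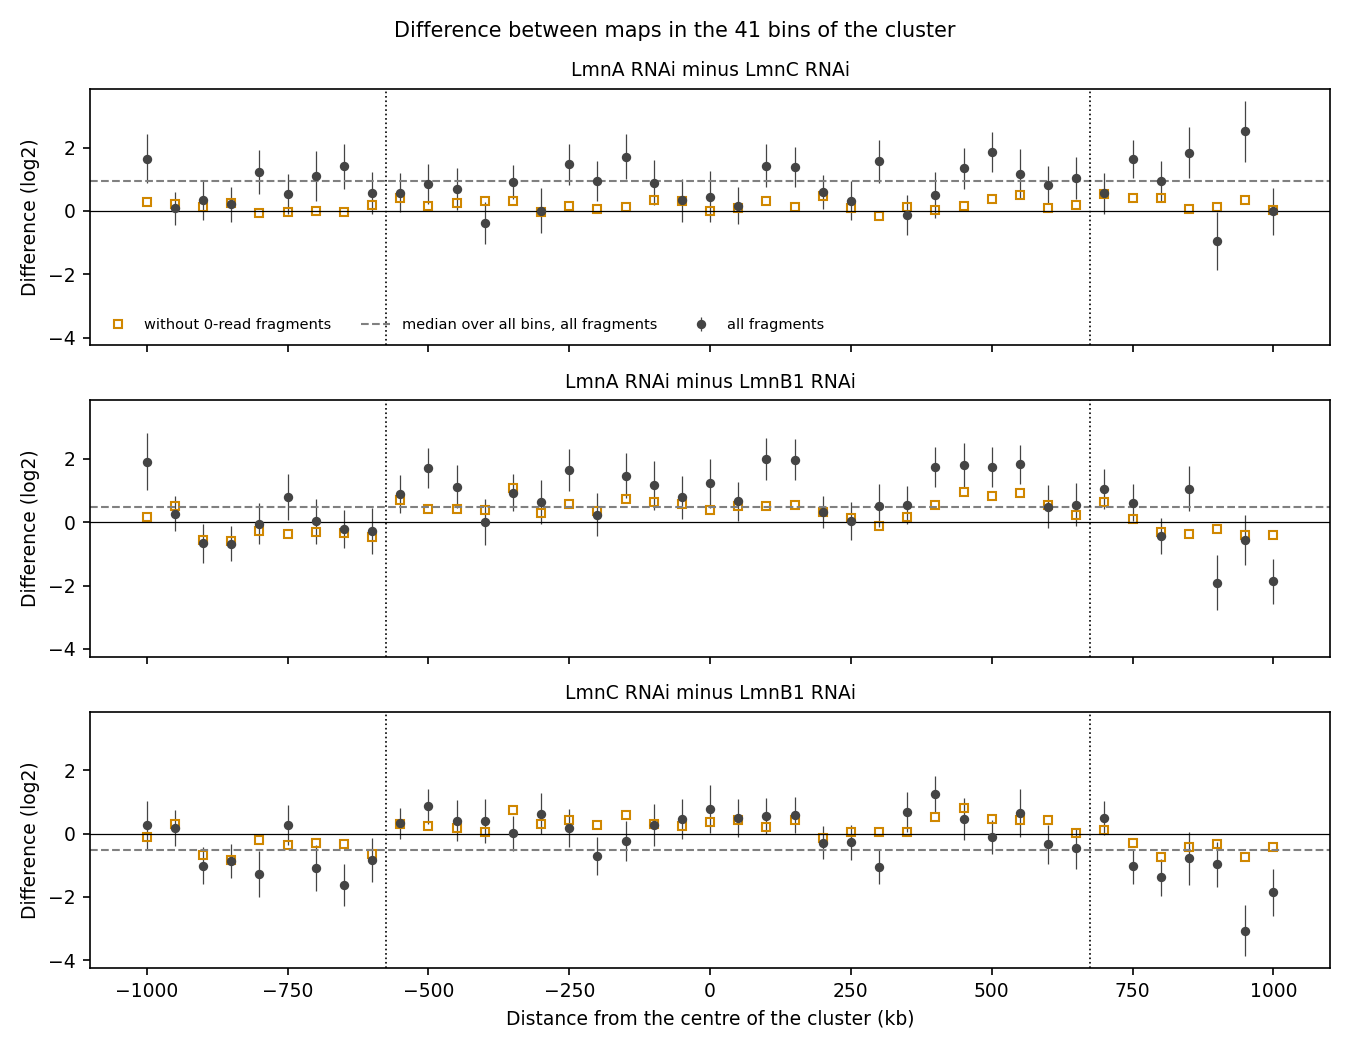
Difference between maps in log2 units in each of the 41 bins against distance from the centre of the cluster in kb, for all fragments (filled points, SE as bars) and with the 0-read fragments left out (open squares). Dotted lines bound the interior and the dashed line is the median over all bins of the genome. Differences against the LmnB1 RNAi map lie mostly above the dashed line in the interior and mostly below it in the low bins of the ends, whereas those between the LmnA and LmnC RNAi maps show no such division.

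The shape of the profile was shared by the maps despite these shifts. Across the 41 bins, Pearson's r was 0.97 for LmnA with LmnC RNAi, 0.96 for LmnA with LmnB1 RNAi and 0.97 for LmnC with LmnB1 RNAi. Within the 25 bins of the interior it was 0.79, 0.73 and 0.80. These interior values rest largely on its last bin (-0.51, -1.54 and -1.07), which lay far below the others in every map. They do not show that the maps agree among the other interior bins. These are descriptions over neighbouring bins that share GATC content and libraries, and bins are not independent replicates.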

How the data were processed

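The authors deposited, for each map, a log2 value per GATC fragment and a list of LAD positions (start and end, in bp of mm9). Reads were aligned with Bowtie to mm9, per the submitters' processing notes; its version, the read filters and the LAD caller are not given in the sources here. The steps of the deposited log2 values show fusion over Dam-only reads, each raised by 1e-05 before the ratio, and then a constant per map (-0.34 for LmnA RNAi, 0.21 for LmnC RNAi, -0.15 for LmnB1 RNAi). All recovered reads up to 100 were whole (100% within 0.02). Fragments at the constant had equal reads, or 0 reads, in both libraries. The deposited files hold 6581229 fragments, and those on unplaced sequences were left out.

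Fragments were assigned by midpoint. Means were weighted by fragment length, per stretch and per 50 kb bin covered to at least 50%. Bins differing by more than 0.5 were counted beside the same share of all bins. LAD shares are shares of fragment length. The bounds of the interior, the lists and the members were chosen with earlier results of these data known. Named sites are every LAD border, the highest and lowest bin of each stretch, and the 3 bins furthest apart in each direction for each pair of maps; a few neighbouring bins and the stretch between LAD ends were named after their values were seen. Alternatives changed the fragments used, their weights, the bounds, the bin size, the threshold and the least LAD length. Calculations used Python 3.11.15, numpy 2.4.6, pandas 2.3.3 and scipy 1.17.1, and the bin and mean code was tested on simulated data.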

Additional observations from a re-analysis of the deposited data

How the results depend on the processing

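With 1 map per knockdown, depth limits single bins, and no statement covers the spread between cultures. The interior stayed above the ends under every alternative run, and the size of the difference changed. In the order LmnA, LmnC and LmnB1 RNAi, it was 2.71, 2.67 and 2.00 without fragments with 0 reads in 1 library, and 5.35, 5.37 and 4.20 without fragments at the constant. It was 6.63, 6.95 and 5.94 with fragments weighted equally, and 2.44, 2.47 and 1.93 with values limited to -3 to 3. With the interior narrower by 2 bins on each side it was 4.25, 4.27 and 3.32, and with it wider by 2 bins 4.54, 4.48 and 3.43.

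The LAD share of the wider interior was 93.5%, 92.4% and 84.2%, and that of the narrower interior 100% after LmnB1 RNAi. In the moved window it was 98.9% in the LmnC RNAi map and 89.3% in the LmnB1 RNAi map. The LAD share of the ends was 13.4%, 11.2% and 0.603% when LADs of at least 300 kb were used, 40.6%, 38.6% and 26.6% beside the narrower interior and 16.9%, 16.2% and 15.9% beside the wider one. In the moved window it was 13.5% in the LmnA RNAi map and 12.9% in the LmnC RNAi map.

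Counts of cluster bins past the difference of 0.5 depended on the scaling. Higher and lower counts for LmnA minus LmnC RNAi were 29 and 1, where 72.2% and 2.81% of all bins passed. They became 6 and 18 with each map centred (21.4% and 33.2% of all bins) and 1 and 0 without the 0-read fragments (23.9% and 0.334%). At a difference of 1 they were 16 and 0, where 47.4% and 0.590% of all bins passed, and in bins of 100 kb the lower count was 0 of 20 (0.813% of all). For LmnA minus LmnB1 RNAi (25 and 5, against 48.7% and 12.5% of all bins) they became 12 and 12 centred (20.4% and 34.2%). Without the 0-read fragments they were 16 and 2 (19.0% and 4.02%), and at a difference of 1 they were 15 and 2 (25.7% and 4.21%). For LmnC minus LmnB1 RNAi (8 and 14, against 8.83% and 50.5% of all bins) they became 20 and 9 centred (24.2% and 27.9%). Without the 0-read fragments they were 4 and 5 (1.82% and 13.1%), and at a difference of 1 they were 1 and 9 (2.08% and 27.0%). In bins of 100 kb the lower count of that pair was 4 of 20 (51.3% of all). No paired analysis was possible because each group holds 1 map and no result comes from a test.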

Other observations

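In the first flank a LAD ended at 21246779, 21245350 and 21246415 in the LmnA, LmnC and LmnB1 RNAi maps, a spread of 1.43 kb, and the signal inside minus outside over 50 kb was 6.62 ± 0.63, 6.50 ± 0.69 and 6.66 ± 0.74. The gap after it (chr13:21246780-21605743, 359 kb) averaged -0.89 ± 0.16, -1.90 ± 0.18 and -1.49 ± 0.16, less low than both gaps around the interior. Its other border, at 21605744 in the LmnA RNAi map, was shallower (2.03 ± 0.50, 2.14 ± 0.56 and 2.27 ± 0.46). The last LAD of the window ended at 24174889, 24161595 and 24138616 (a spread of 36.3 kb) with steps of 1.89 ± 0.50, 1.39 ± 0.43 and 0.19 ± 0.44. All steps were measured at the border of the LmnA RNAi map, so a step in another map is lowered by construction where that map places the border elsewhere.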
